A study of Homo sapiens with 6 samples.

Results

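The transcripts of 10 cyclin and cyclin-dependent kinase (CDK) genes were examined in bladder cancer cells given a synthetic androgen. The genes were CCND1, CCND3, CDK4, CDK6, CCNE2, CDK2, CCNA2, CCNB1, CCNB2 and CDK1, taken as a list of core cell cycle cyclins and their kinases. Every probe set that the array's annotation assigned to only 1 of them was used, which gave 26 of the 49193 probe sets, and no probe set was shared between a member and another gene. Each of the 10 genes, of 18129 genes in all, was also represented by its probe set with the highest mean over the 6 arrays. The compared groups were UMUC3-c31 cells given 10 nM R1881, a synthetic androgen, for 24 h, and UMUC3-c31 cells given ethanol vehicle. All cells had first been held for 24 h in serum stripped of steroids with charcoal, and each group had 3 biological replicates on 1 array each. UMUC3-c31 is named for UMUC3, an established human bladder carcinoma line, and the sources used here do not say how c31 was derived.

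Cyclins are the regulatory subunits that switch on CDKs, and their levels rise and fall through the cell cycle. D-type cyclins with CDK4 and CDK6 act in G1, where they phosphorylate the retinoblastoma protein and so release E2F factors; cyclin E with CDK2 then drives entry into S phase. Cyclin A2 works with CDK2 in S phase and with CDK1 later, and the B-type cyclins with CDK1 bring cells into mitosis. CDK transcripts of G1 are comparatively steady, whereas CCNA2, CCNB1, CCNB2 and CDK1 are transcribed mainly in S and G2 phase and are low in resting cells. In urothelial carcinoma the G1 step is often altered.

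The promoters of the late genes carry short elements known for that timing, and 7 of the 10 genes had a window in RefSeq's table for GRCh38.p14, from 250 bases before to 50 bases from the annotated start on. CCND1, CCNE2 and CDK2 had none. The windows of the 4 late genes are shown because these were the members with an unadjusted p under 0.05 in the array test below, and that of CDK4 because it is the G1 kinase with the densest matches to another motif. Capitals mark CCAAT boxes (CCAAT), bound by the factor NF-Y, cell cycle homology region elements (CHR, searched as the word TTTGAA and its known variants CTTGAA and also TTTAAA and also TTCGAA), bound by MuvB complexes with their repressor and activator partners, and E-boxes (CACGTG), bound by MYC and related factors. All were searched on both strands, and no matches overlapped. The sequences, 5′ to 3′ on the gene's strand, lie at chr4:121823834-121824133 (minus strand, CCNA2), chr5:69166900-69167199 (plus, CCNB1), chr15:59104896-59105195 (plus, CCNB2), chr10:60778228-60778527 (plus, the downstream of 2 CDK1 windows) and chr12:57752261-57752560 (minus, CDK4).
CCNA2: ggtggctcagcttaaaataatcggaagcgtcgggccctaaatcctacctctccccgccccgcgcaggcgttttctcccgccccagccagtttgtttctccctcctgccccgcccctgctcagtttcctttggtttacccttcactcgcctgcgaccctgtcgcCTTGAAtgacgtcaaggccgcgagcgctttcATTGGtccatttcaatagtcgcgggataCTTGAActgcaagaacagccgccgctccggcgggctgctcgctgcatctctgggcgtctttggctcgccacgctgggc
CCNB1: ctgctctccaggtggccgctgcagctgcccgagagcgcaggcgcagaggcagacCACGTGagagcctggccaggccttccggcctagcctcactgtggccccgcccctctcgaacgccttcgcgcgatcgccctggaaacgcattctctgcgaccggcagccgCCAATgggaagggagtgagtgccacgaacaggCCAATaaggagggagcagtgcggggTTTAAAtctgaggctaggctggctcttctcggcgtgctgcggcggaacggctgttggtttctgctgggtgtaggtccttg
CCNB2: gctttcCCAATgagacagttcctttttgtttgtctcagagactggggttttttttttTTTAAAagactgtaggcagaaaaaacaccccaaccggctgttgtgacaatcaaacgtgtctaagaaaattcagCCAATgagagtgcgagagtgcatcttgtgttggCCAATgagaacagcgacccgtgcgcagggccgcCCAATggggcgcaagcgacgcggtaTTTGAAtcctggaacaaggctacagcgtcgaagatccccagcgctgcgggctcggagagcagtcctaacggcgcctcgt
CDK1: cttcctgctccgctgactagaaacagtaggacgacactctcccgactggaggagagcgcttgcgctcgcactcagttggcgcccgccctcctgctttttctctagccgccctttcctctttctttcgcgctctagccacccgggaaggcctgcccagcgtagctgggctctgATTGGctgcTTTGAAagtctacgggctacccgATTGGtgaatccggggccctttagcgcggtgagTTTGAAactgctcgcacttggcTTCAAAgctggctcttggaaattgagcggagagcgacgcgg
CDK4: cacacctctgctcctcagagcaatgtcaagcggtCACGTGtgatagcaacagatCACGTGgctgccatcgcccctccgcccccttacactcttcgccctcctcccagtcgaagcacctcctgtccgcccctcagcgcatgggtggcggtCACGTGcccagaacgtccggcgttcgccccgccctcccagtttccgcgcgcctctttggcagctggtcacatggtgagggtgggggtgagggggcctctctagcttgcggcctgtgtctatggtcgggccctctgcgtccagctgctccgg

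The CCNB1 and CCNB2 windows shared a layout. CCNB1 held, besides an E-box at -196, CCAAT boxes beginning at -87 and -55 and the CHR word TTTAAA at -30, counted in bases before the annotated start. CCNB2 held CCAAT boxes at -120, -87 and -54 and TTTGAA at -29, besides a distal CCAAT at -244 and TTTAAA at -193. The downstream CDK1 window held CCAAT boxes in reverse orientation at -78 and -46 and TTTGAA at -69, -13 and, in reverse, from base 10 on. In CCNA2 a reverse CCAAT box at -56 lay between CTTGAA at -87 and at -28. CDK4 held no CCAAT box or CHR word but 3 E-boxes, at -216, -196 and -101. Some windows not shown also held these words, so CCAAT boxes were not confined to the late genes. The windows of CCND3, a G1 gene, held a reverse CCAAT box at -64 and a forward CCAAT box at -136. A CDK6 window held an E-box from base 31 on, and the other CCND3 and CDK6 windows held none of the words. The upstream CDK1 window held a CCAAT box at -150, TTTGAA at -161 and TTTAAA at -131. Of all 35116 windows in the table, 34.6% held at least 1 CCAAT box and 10.8% at least 2. At least 1 CHR word was held by 32.2%, at least 2 CCAAT boxes with a CHR word by 3.67%, and at least 2 E-boxes by 0.664%. These words are common, a match is not evidence of a bound site, and no match says only that the letters are not in that window.

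**Figure D1:**
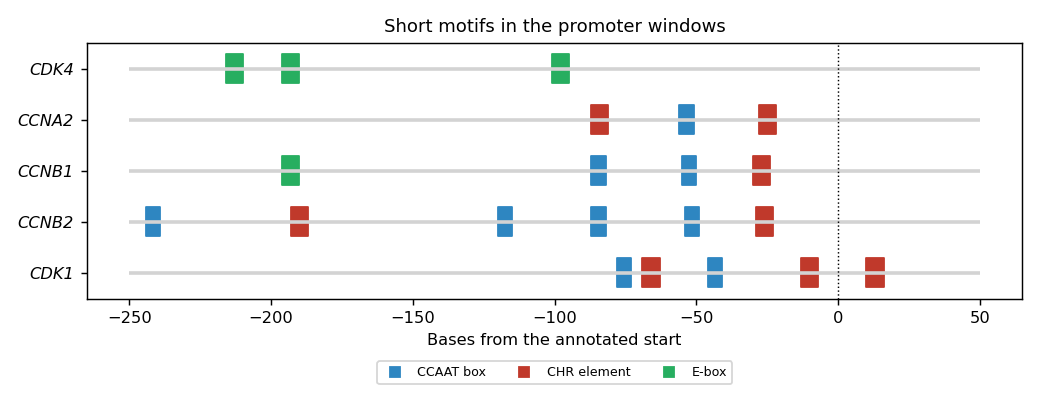
Positions of CCAAT boxes (blue), CHR words (red) and E-boxes (green) in the promoter windows of CDK4, CCNA2, CCNB1, CCNB2 and CDK1 (downstream window), against the distance in bases from the annotated start (dotted line). In CCNB1 and CCNB2 the CCAAT boxes at -87 and at -55 or -54 are followed by a CHR word at -30 or -29.

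The question was whether 24 h of R1881 altered these transcripts. None of the 10 genes passed the test of R1881 against vehicle, a limma linear model with Benjamini-Hochberg adjustment across the 18129 genes and a threshold of 0.05. By the same test 2.42% of all genes changed, 1.6% higher and 0.816% lower. At an unadjusted p under 0.05 there were 4 of the 10, all lower with R1881 (CCNA2, CCNB1, CCNB2 and CDK1). At that level 7.19% of all genes were lower, and 1141 of the 11049 genes above background. The median log2 change of the 10 was -0.11, where that of all genes was 0.00, and 8 of the 10 were lower by sign, as were 48.7% of all genes. On 7 of the 10 every R1881 array lay below every vehicle array, against 9.93% of all genes, or 14.8% of the 11049 genes above background, and on none did every R1881 array lie above (8.53% of all genes). An exact two-sided permutation test of 3 arrays against 3 gave p = 0.10 for each of these 7, the smallest it can give. Groups that do not overlap always give this value, so the test adds nothing to the count of 7. Values are log2 intensities as the authors' RMA summary gives them, which equalises the arrays' overall distributions. All 10 genes lay above the background level of 4.99, the 90th percentile of 423 olfactory receptor and keratin-associated protein genes. Levels of different genes are not set against each other, since probes differ in affinity, and in a bulk culture fewer cycling cells and less RNA per cell cannot be told apart.

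In a principal component analysis the groups separated on the leading component (43.2% of the variance). Vehicle replicate 1 scored 11.04 on the next component (19.6%), where the other vehicle arrays scored -8.21 and -6.99. R1881 replicate 1 scored 5.69 there, and the other R1881 arrays -0.67 and -0.87. Array medians were 5.49 to 5.51. Of the markers checked, 5 of 14 epithelial and bladder genes lay above background. They were KRT18 (10.38 with R1881, 10.75 with vehicle), KRT8 (7.84 and 7.91), KRT7 (5.83 and 5.43), UPK1A (5.08 and 5.03) and GATA3 (5.02 and 4.91). UPK1A and GATA3 lay close to the background level of 4.99. Among those not above it were EPCAM (2.61 and 2.65), CDH1 (3.04 and 3.17), UPK2 (3.66 and 3.64) and UPK3A (4.52 and 4.52). By limma KRT18 fell and KRT7 rose. All 5 mesenchymal markers lay above background, with VIM at 14.06 and 14.10, and FN1 rose. Of 7 measured immune and endothelial markers 3 lay above background: the macrophage marker CD68 (8.69 with R1881, 8.93 with vehicle), the T cell marker CD3E (5.02 and 4.83) and the endothelial marker VWF (5.13 and 5.07). The leukocyte marker PTPRC lay below it (2.93 and 3.00). Of 6 fibroblast markers, ACTA2 (7.31 and 7.36) and PDGFRB (5.29 and 5.15) lay above background, and LUM (2.56 and 2.51) and 3 others below. None of these last 13 markers passed the limma test, and 2, CD68 and CD3E, had an unadjusted p under 0.05. Their part in the results was not tested.

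**Figure D2:**
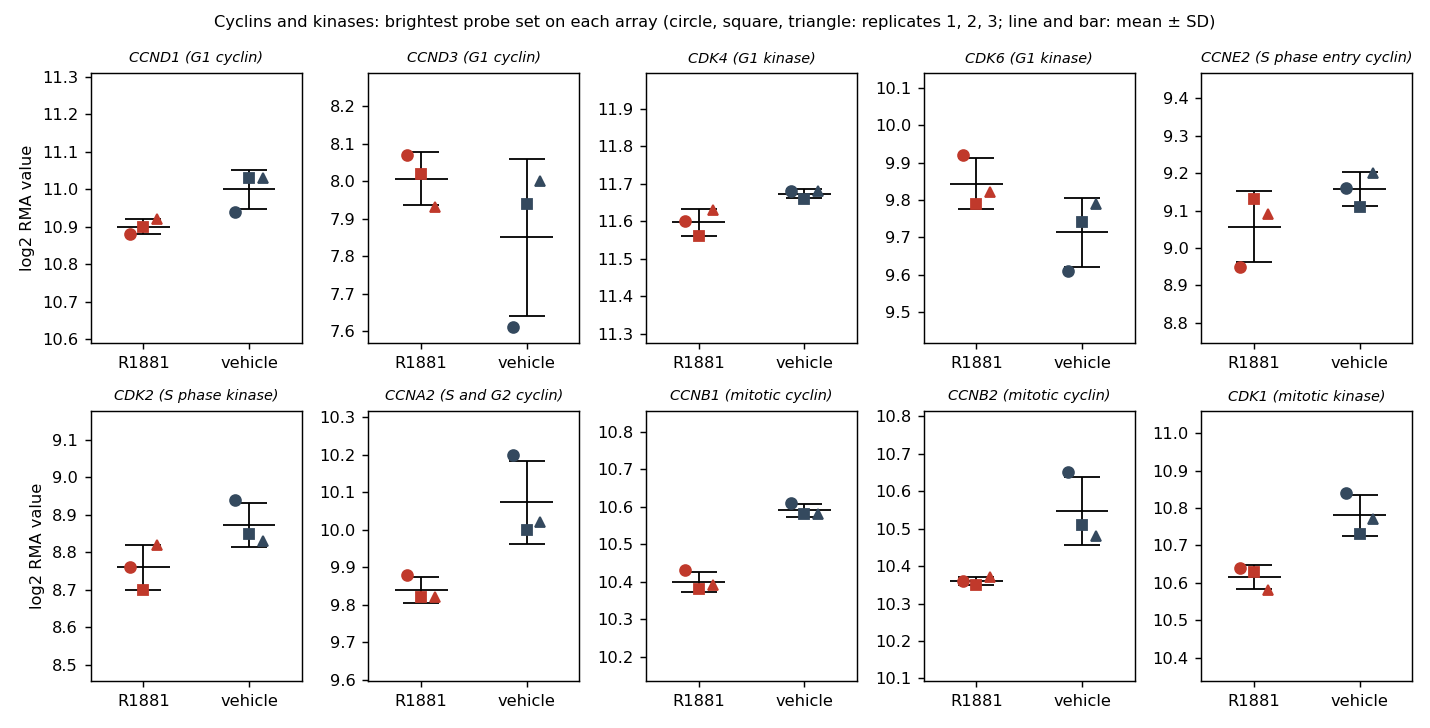
Log2 RMA value of the brightest probe set of each of the 10 genes on each array, R1881 in red and vehicle in dark blue, with group means and SD (n = 3 each); every panel spans the same log2 range. The R1881 arrays lie below all vehicle arrays for CCNA2, CCNB1, CCNB2, CDK1, CDK2, CCND1 and CDK4, and the groups overlap for CCND3, CDK6 and CCNE2.

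Of the mitotic cyclins, CCNB1, the cyclin that activates CDK1 at entry into mitosis, had the smallest p of the list. It read 10.43, 10.38 and 10.39 on the R1881 arrays, against 10.61, 10.58 and 10.58 on the vehicle arrays. The gap between the groups was thus wider than the spread within either, with means of 10.40 ± 0.03 with R1881 and 10.59 ± 0.02 with vehicle (SD, n = 3 each). The log2 change was -0.19 ± 0.04 (SE), or 0.877 times the vehicle level with an unadjusted 95% interval of 0.820 to 0.938. Its adjusted p of 0.0774 (limma) missed the threshold. This call depended on the fit: the adjusted p was 0.0230 when dim genes were left out, 0.0147 when more were left out by a higher background level, 0.0496 with probe sets averaged per gene and 0.00545 with a variance prior that follows intensity and resists outliers. It was 0.272 with genes represented by the probe set of largest variance, and with 1 array left out it was 0.138 to 0.221. CCNB1 has 1 probe set, so its own values and its change of -0.19 were the same under these probe set rules. Only the values of other genes, which share the variance prior and the adjustment, differed.

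CCNB2, a second B-type cyclin found largely at the Golgi, read 10.36, 10.35 and 10.37 with R1881, against 10.65, 10.51 and 10.48 with vehicle. The R1881 arrays hardly differed among themselves and all lay lower. The change was -0.19 ± 0.06 (SE; limma adjusted p = 0.188). Vehicle replicate 1 was the highest array, and without it the change was -0.14 (adjusted p = 0.246).

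CDK1, the kinase that B-type cyclins switch on, read 10.64, 10.63 and 10.58 with R1881 on its brightest probe set, against 10.84, 10.73 and 10.77 with vehicle. The groups did not overlap, and the change was -0.16 ± 0.05 (SE; limma adjusted p = 0.182). A further bright CDK1 set read 9.59, 9.56 and 9.50 with R1881, against 9.84, 9.74 and 9.74 with vehicle. This set also separated the groups, with a change of -0.22 ± 0.05 and, over all probe sets, a limma adjusted p of 0.132. The last CDK1 set, at -0.42 ± 0.21, lay below background in both groups and its groups overlapped. The brightest set has an identifier of the kind given to probes that match several transcripts.

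CCNA2, the cyclin of S and G2 phase that partners CDK2 and then CDK1, had the largest difference among the 10 genes' brightest sets. It read 9.88, 9.82 and 9.82 with R1881, against 10.20, 10.00 and 10.02 with vehicle. All R1881 arrays were lower, and vehicle replicate 1 lay above the other vehicle arrays. The change was -0.23 ± 0.06 (SE), or 0.851 times the vehicle level (unadjusted 95% interval 0.767 to 0.944; limma adjusted p = 0.152), and it was -0.17 without vehicle replicate 1 (adjusted p = 0.198). Its other probe set read 9.10, 9.04 and 9.07 with R1881, against 9.28, 9.20 and 9.21 with vehicle, again without overlap. With the variance prior that follows intensity, CCNA2, CCNB1, CCNB2 and CDK1 all passed, with adjusted p of 0.0356, 0.00545, 0.0434 and 0.0327, and 895 genes in all were called.

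Neither member of S phase entry had an unadjusted p under 0.05. CDK2, the kinase of cyclins E and A, read 8.76, 8.70 and 8.82 with R1881, against 8.94, 8.85 and 8.83 with vehicle. The groups were separated by only 0.01 at their nearest arrays, R1881 replicate 3 and vehicle replicate 3, and the change was -0.11 ± 0.05 (SE; limma adjusted p = 0.396). The other CDK2 sets stood at -0.15 ± 0.05 without overlap and at -0.11 ± 0.06 with overlap.

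CCNE2, cyclin E2, which activates CDK2 at the G1/S border, read 8.95, 9.13 and 9.09 with R1881, against 9.16, 9.11 and 9.20 with vehicle. The groups overlapped, with R1881 replicate 1 lowest, and the change of -0.10 ± 0.06 (SE; limma adjusted p = 0.496) became -0.05 without that array. Its other probe set stood at -0.01 ± 0.07.

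The G1 members did not share a direction. CCND1, the D-type cyclin induced by mitogens, read 10.88, 10.90 and 10.92 with R1881 on its brightest set, against 10.94, 11.03 and 11.03 with vehicle. The groups were apart by a narrow margin, and the change was -0.10 ± 0.05 (SE; limma adjusted p = 0.382). All 4 CCND1 sets were lower with R1881, at -0.10 to -0.27, but on 2 of them the groups overlapped. The lowest of these, at -0.27 ± 0.14, read 8.51, 8.58 and 8.99 with R1881, against 9.08, 8.79 and 9.02 with vehicle. R1881 replicate 3 lay there among the vehicle arrays.

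CDK4, a kinase of D-type cyclins, read 11.60, 11.56 and 11.63 with R1881, against 11.68, 11.66 and 11.68 with vehicle. The groups did not overlap but the change was small, -0.08 ± 0.04 (SE; limma adjusted p = 0.460). Its 4 probe sets stood at -0.05 to -0.14, and 2 of them have identifiers of the kind given to probes that match several transcripts.

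CDK6, the other kinase of D-type cyclins, was higher by sign. It read 9.92, 9.79 and 9.82 with R1881, against 9.61, 9.74 and 9.79 with vehicle, so that the groups met at 9.79. The change was 0.13 ± 0.06 (SE; limma adjusted p = 0.412) and 0.08 without vehicle replicate 1. Its 4 probe sets stood at 0.01 to 0.13, and the groups overlapped on each of them. CCND3, a D-type cyclin prominent in blood cells, read 8.07, 8.02 and 7.93 with R1881, against 7.61, 7.94 and 8.0 with vehicle. Its change of 0.16 ± 0.10 (SE; limma adjusted p = 0.539) rested on vehicle replicate 1, the lowest array, and was 0.04 without it. The other CCND3 set lay below background in both groups.

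Vehicle replicate 1 was the highest of the 6 arrays, ties counted, for 6 of the 10 genes and the lowest for 2, CCND3 and CDK6. For CDK4 it was tied with vehicle replicate 3. R1881 replicate 2 was the lowest, ties counted, for 5. The part of vehicle replicate 1 in these values was not tested beyond leaving it out. Without it the 4 late genes stood at -0.17 (CCNA2), -0.18 (CCNB1), -0.14 (CCNB2) and -0.13 (CDK1). In that fit no member passed the limma test, where 270 of the 18129 genes did. An unadjusted p under 0.05 was found for 5 of the 10 members and for 2388 of the 18129 genes.

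Over single probe sets, tested in a limma fit of all 49193, none of the 26 passed, where 1.54% of all probe sets did, and 9 had an unadjusted p under 0.05, all lower (6.32% of all probe sets). By sign 21 of the 26 were lower, against 49.6% of all, and the groups did not overlap on 12, all lower, against 9.08% of all (16.8% in either direction). These 12 were 2 of the 3 CDK1 sets, both CCNA2 sets, the single CCNB1 and CCNB2 sets, 2 of 3 for CDK2, 2 of 4 for CCND1 and 2 of 4 for CDK4. Sets of a gene read the same RNA and are not replicates.

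**Figure D3:**
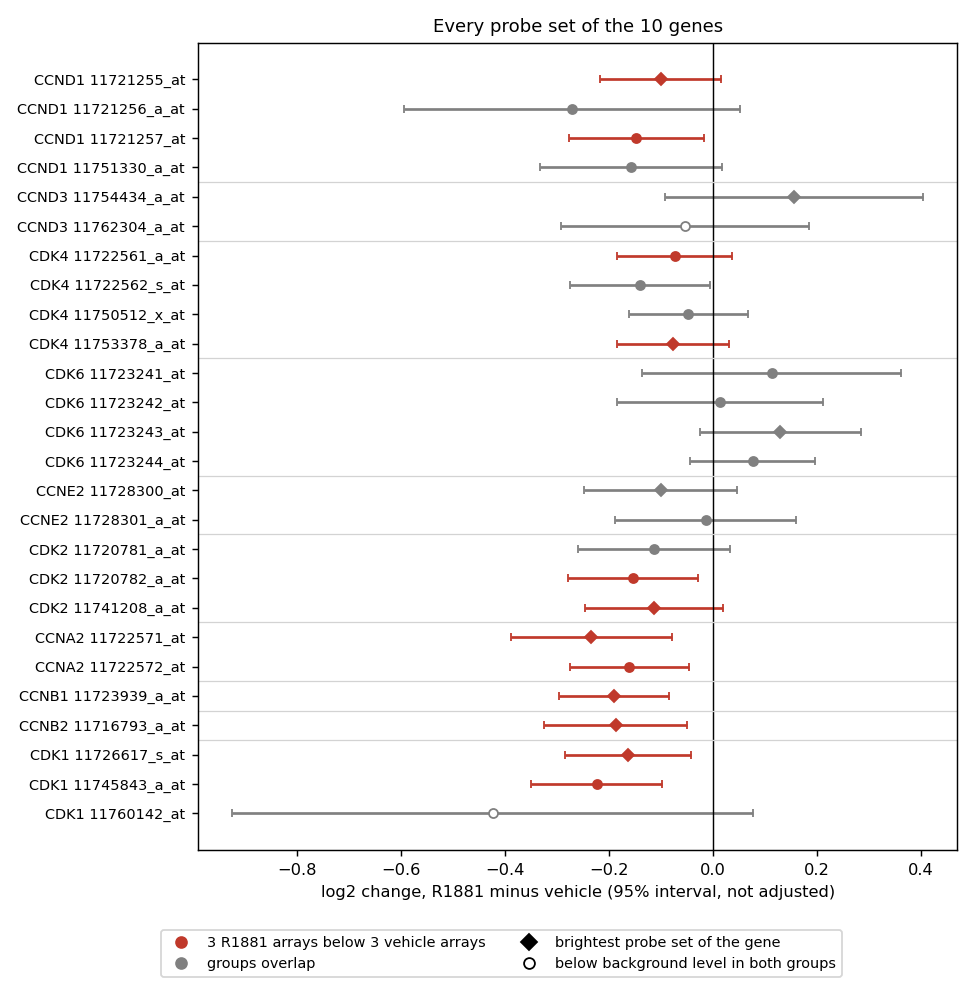
Log2 change (R1881 minus vehicle) of every probe set of the 10 genes, with the unadjusted 95% interval of the limma fit over all probe sets; red marks sets whose R1881 arrays all lie below the vehicle arrays, diamonds the brightest set of a gene, and open points sets below background in both groups. Sets of CCNA2, CCNB1, CCNB2 and the brighter CDK1 sets lie between -0.16 and -0.23, and those of CDK6 at or above 0.01.

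Genes connected with the members were grouped in 9 lists. Their counts are to be read against the 2.42% of all genes that passed the limma test. An unadjusted p under 0.05 was found for 14.3% of all genes (7.19% lower). Of the 11049 genes above background, 1141 were lower at that level. Among 18 cyclins outside the list none passed the limma test (5 at an unadjusted p under 0.05), with a median of -0.01. The nearest were CCNY, a membrane-bound cyclin, at 0.24 ± 0.05 (SE; adjusted p = 0.0567), CCNH, the cyclin of the CDK-activating kinase, at -0.22 ± 0.05 (0.0698), CCNJ at -0.22 ± 0.05 (0.0883) and CCNT1, the cyclin of the elongation factor P-TEFb, at -0.19 ± 0.04 (0.0937). Of 13 measured CDKs outside the list 1 rose and none fell, with a median of 0.00. It was CDK18, a kinase of the PCTAIRE group, which read 5.51, 5.92 and 5.64 with R1881, against 4.93, 5.01 and 4.97 with vehicle. The vehicle mean lay below background, so that CDK18 was at least 1.62-fold higher with R1881 (limma adjusted p = 0.0137). It stayed under the threshold when R1881 replicate 1 or R1881 replicate 2 was left out, and passed 0.05 without any other array (0.0696 to 0.0824). Taken over the mean of its probe sets, the change was 0.335 (adjusted p = 0.0336). CDK14 and CDK17, kinases of the PFTAIRE and PCTAIRE groups, stood at -0.19 ± 0.05 (0.109) and -0.19 ± 0.06 (0.234), and CDK7, the CDK-activating kinase, at -0.14 ± 0.05 (0.319).

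None of 9 activators and subunits of CDKs passed the limma test, although 6 had an unadjusted p under 0.05, all lower (7.19% of all genes), and the median was -0.16, against 0.00 for all genes. CDC25C and CDC25B, phosphatases that remove the inhibitory phosphates from CDK1, stood at -0.22 ± 0.05 and -0.20 ± 0.05 (SE; adjusted p = 0.103 and 0.160), and CKS2, a small CDK-binding subunit, at -0.18 ± 0.05 (0.190). Among 8 measured brakes on CDKs 1 rose and none fell, with a median of 0.01. CDKN1A, which encodes the inhibitor p21, read 9.71, 9.73 and 9.71 with R1881, against 9.35, 9.29 and 9.24 with vehicle. It rose by 0.42 ± 0.05 (SE; limma adjusted p = 0.00492), and its adjusted p was 0.0125 to 0.0341 with any 1 array left out. CDKN1B, the inhibitor p27, stood at -0.15 ± 0.06 (adjusted p = 0.276), CDKN1C, the inhibitor p57, at 0.13 ± 0.05 (0.314; -0.05 with its probe set of largest variance and 0.04 with its sets averaged), and CDKN2B, an inhibitor of CDK4 and CDK6, at 0.09 ± 0.06 (0.513) below background in both groups.

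Of 14 genes that govern cyclin destruction 1 fell and none rose, with a median of -0.03. FBXO5, which restrains the anaphase-promoting complex and so protects cyclins A and B, read 9.17, 9.19 and 9.23 with R1881, against 9.59, 9.48 and 9.53 with vehicle. It fell by 0.34 ± 0.05 on the log2 scale (SE, limma adjusted p = 0.0142). The adjusted p was 0.0549 to 0.0775 without vehicle replicate 3 or without any 1 R1881 array. It was 0.0566 when genes were represented by the probe set of largest variance, although the log2 change of FBXO5 was the same there. CDC20, an activator of that complex, stood at -0.16 ± 0.04 (0.144), SKP2, of the ligase that degrades p27, at -0.11 ± 0.05 (0.397), and UBE2C, the complex's ubiquitin-conjugating enzyme, at 0.09 ± 0.05 (0.444).

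Of 13 E2F and pocket protein genes 1 fell and none rose, with a median of -0.06 and 12 of 13 lower by sign. E2F8, a repressor of E2F target genes, fell by 0.38 ± 0.07 (SE, limma adjusted p = 0.0336). It missed the threshold without any 1 array (0.0660 to 0.138). With genes represented by the probe set of largest variance it also missed it (0.0709), although the log2 change of E2F8 was the same there. TFDP1, the dimer partner of E2F factors, stood at -0.10 ± 0.05 (0.378), E2F3 at -0.13 ± 0.06 (0.410) and RBL1, the pocket protein p107, at -0.11 ± 0.06 (0.483). None of 7 genes of MuvB complexes, MYBL2 and FOXM1 passed (3 at an unadjusted p under 0.05, where 14.3% of all genes were), with a median of -0.03. The MuvB subunit genes LIN9, LIN52 and RBBP4 stood at -0.28 ± 0.07, -0.29 ± 0.09 and -0.19 ± 0.06 (adjusted p = 0.110, 0.188 and 0.193) and LIN37 at 0.13 ± 0.06 (0.381). The remaining genes LIN54, MYBL2 and FOXM1 stood at 0.12, 0.02 and -0.03, with the groups overlapping on each.

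A list of 10 genes held MYC, the genes of the CCAAT-binding factor NF-Y, and AP-1 and other inducers of G1 cyclins. None passed the limma test (3 at an unadjusted p under 0.05, where 14.3% of all genes were), with a median of -0.02. MYC stood at 0.06, and the NF-Y genes NFYA, NFYB and NFYC at -0.03, -0.01 and -0.05, with the groups overlapping on each. EGR1, an immediate early factor, stood at -0.39 ± 0.12 (SE; adjusted p = 0.196), STAT3 at 0.18 ± 0.06 (0.214), the Wnt effector TCF7L2 at -0.12 ± 0.04 (0.255) and FOS at 0.08 ± 0.05 (0.560; -0.23 with its probe set of largest variance). Among 14 partners and substrates of mitotic CDK1 none passed, 6 had an unadjusted p under 0.05, all lower (7.19% of all genes), and 13 were lower by sign (48.7% of all genes), with a median of -0.10. The survivin gene BIRC5 stood at -0.20 ± 0.04 (0.0647), and the spindle checkpoint kinase genes TTK, BUB1 and BUB1B at -0.24 ± 0.05, -0.17 ± 0.05 and -0.14 ± 0.04 (0.0903, 0.165 and 0.182). CCNH and CDK7 count in more than 1 of these lists.

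**Figure D4:**
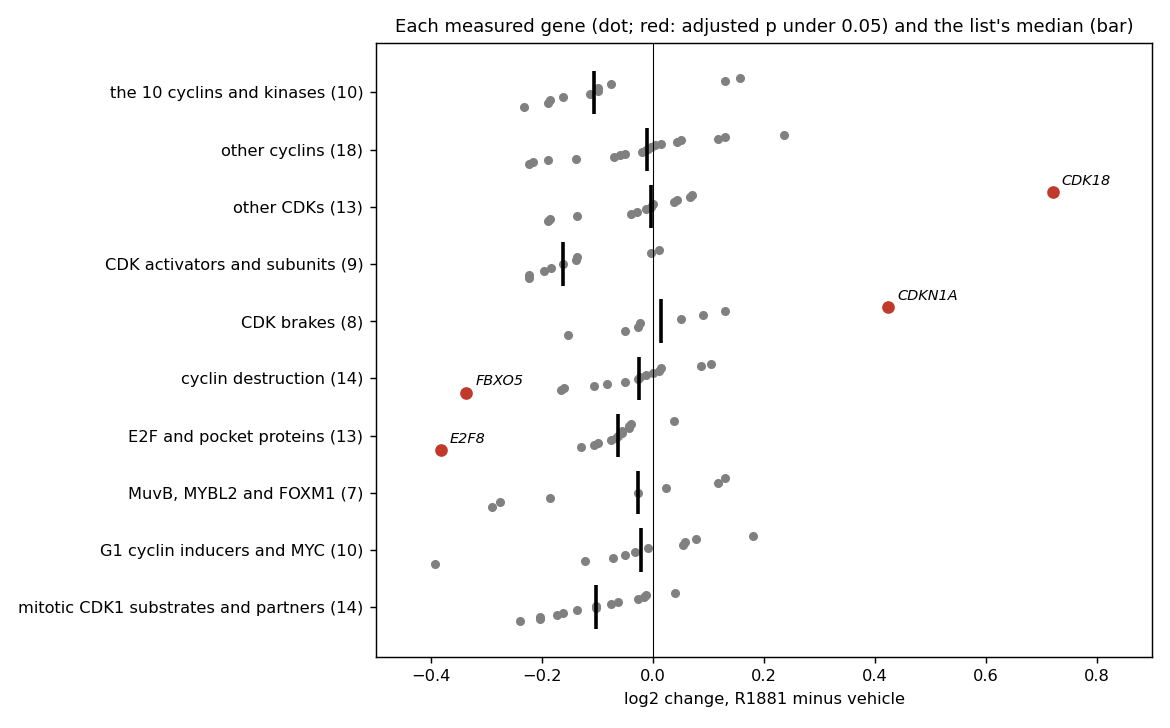
Log2 change (R1881 minus vehicle) of each measured gene in the 10 members and in 9 lists of connected genes (number measured in brackets), with red for limma adjusted p under 0.05 and a bar at the list's median. CDK18, CDKN1A, FBXO5 and E2F8 are the genes that passed, and the medians run from -0.16 for CDK activators and subunits to 0.01 for CDK brakes.

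The genes whose 6 array values followed CCNB1 most closely, among 11047 genes above background, were DUSP4, a phosphatase of MAP kinases (Pearson r = 0.998), the nucleoporin gene NUP37 (0.996) and the kinase gene PLK2 (0.995). Each was lower on every R1881 array than on every vehicle array, with changes of -0.27 ± 0.04, -0.19 ± 0.04 and -0.15 ± 0.04 (SE; limma adjusted p = 0.0276, 0.0645 and 0.158). The 6 points share the difference between the groups, and r was not computed within a group.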

How the data were processed

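Per the submitters' processing notes, the authors deposited log2 values made with RMA, 1 per probe set and array; the sources used here give neither a version nor a filter. RMA quantile-normalizes arrays, so that a uniform change of all transcripts would be removed. Scanner files were not used, background was judged from the olfactory receptor and keratin-associated genes alone, and 3 arrays per group limit the precision. Gene names came from the array's annotation table, which gave 44898 of 49193 probe sets 1 symbol, 1825 several and 2470 none. All 10 members were found in RefSeq's gene table by Entrez identifier. Fits used limma 3.58.1 in R 4.3.3 (lmFit, eBayes, no trend, no filter), two-sided. They were also run on simulated data with known changes. No recovery rate for changes as small as those of the members is reported here. Groups came from the sample titles. The most alike pair of arrays had equal values on 9.02% of probe sets. Named genes were all members, up to 4 of each list by smallest p, and the 3 nearest to the member of smallest p. Members and lists were chosen with earlier results of these data known. Alternatives were other array scaling, dim genes left out, a trended robust prior, a replicate block, other probe set rules and each array left out. Promoters came from RefSeq, GRCh38.p14.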

Additional observations from a re-analysis of the deposited data

How the results depend on the processing

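The count of changed genes, 438 of 18129, was 757 of 11049 without dim genes and 881 of 9255 with the background set at the 95th percentile. Over all 18129 it was 895 with a trended robust prior, 470 with probe sets averaged per gene and 280 with the probe set of largest variance. It was 222 with a replicate block and 209 to 270 with 1 array left out. Of the 10 members, 0 were called in the main setting, 1 without dim genes (CCNB1), 2 with the higher background (CCNB1 and CCNA2), 4 with the trended robust prior and 1 with probe sets averaged per gene (CCNB1, adjusted p = 0.0496). Rescaled arrays, the probe set of largest variance, the replicate block and each left-out array gave 0. Higher against lower calls, 290 against 148 in the main setting, were 423 against 334 without dim genes, 463 against 418 with the higher background, 475 against 420 with the trended robust prior and 170 against 52 with the block. Over probe sets the count, 759 of 49193, was 1383 of 27648 without dim ones. Over all 49193 it was 1525 with the trended robust prior, 372 with the block and 302 to 406 with 1 array left out. Of the member sets, 2 of 24 were called without dim ones and 3 of 26 with the trended robust prior. The split of 549 higher against 210 lower probe sets was 823 against 560 without dim ones and 871 against 654 with that prior. No member's brightest set changed sign, but 3 further sets near 0 did with 1 array left out. The dimmest CDK6 set ran between -0.042 and 0.108, the dimmer CCNE2 set between -0.077 and 0.038, and the dimmer CCND3 set between -0.135 and 0.06. With the probe set of largest variance CDKN1C stood at -0.05 and FOS at -0.23, since another probe set then represents each; no other cause was tested. Of 911 single values recomputed, 838 kept their direction and side of the threshold, 18 lost and 48 gained the call, and 7 turned. Same-numbered replicates deviated together weakly (r of 0.09, 0.06 and 0.03), and each array was closest to its own number. The sample titles number the replicates but do not say whether they were paired. Pairing was not tested beyond the replicate block. With the replicate block the adjusted p of FBXO5 was 0.0767, of E2F8 0.0562, of CDK18 0.0302 and of CDKN1A 0.0362.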

Other observations

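Genes above background whose promoter window held at least 2 CCAAT boxes and a CHR word, the combination seen in CCNB1, CCNB2 and CDK1, numbered 388, a grouping chosen after the members' values were seen. Their median log2 change was -0.03, against -0.01 for the 9125 genes above background with any window and 0.00 for the 3911 with neither word. On 26.3% of the 388 every R1881 array lay below every vehicle array, against 15.2% of the 9125 and 13.9% of the 3911. By limma 8 of the 388 fell (2.06%), against 1.26% of the 9125 and 1.28% of the 3911. Of the 388, 9 rose, against 223 of the 9125 and 91 of the 3911. The 388 are part of the 9125 and include CCNB1, CCNB2 and CDK1, on which the grouping was modelled. They do not include CCNA2, whose window held 1 CCAAT box. No test was made of the difference.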
